A study of Homo sapiens with 27 samples.

Results

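The response to ZEB1 repression was compared between SUM159 and MDA-MB-231, mesenchymal-like human cell lines derived from triple negative breast cancers. Of the 27 libraries sequenced, 18 entered the comparison, 9 from each line and 3 in each of 6 groups. In SUM159 the groups were No gRNA, All gRNA (the pool of 4 gRNAs) and gRNA 4. In MDA-MB-231 they were No gRNA and 2 ZEB1-targeted groups, here called set 1 and set 2, because the sample titles and the data columns of these 6 libraries name opposite conditions (set 1 is gRNA 4 by title and the pool by column, set 2 the reverse). Both sets carry gRNAs against ZEB1, and the effect in MDA-MB-231 was taken as the mean of both. All 18 libraries, the No gRNA controls included, come from cells transduced with a lentivirus for dCas9-KRAB and selected with puromycin, so No gRNA holds the repressor but nothing that guides it. The study's methods call the replicates individual clones, and the lines were grown in different media. Untransduced wild type libraries, 3 per line, served as a further control. The dCas9-KRAB libraries of SUM159 were in sequencing run 1 and all those of MDA-MB-231 in run 2. Among these libraries line, medium and run therefore cannot be told apart. Wild type SUM159 was sequenced in both runs, but its 3 libraries of run 2 were left out. Each effect was taken within its line, where control and targeted cells share a run. Totals of the 18 libraries were between 15463351 and 19409955 estimated counts.

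ZEB1 is a zinc-finger transcription factor that binds E-box motifs, recruits corepressors and holds epithelial genes silent. It drives the epithelial-to-mesenchymal transition (EMT), in which cells lose junctions and polarity and gain motility. dCas9-KRAB is a Cas9 without cutting activity fused to a repressor domain, which silences the promoter to which a gRNA brings it. The gRNAs define the perturbation shared by both lines and are shown 5′ to 3′ in lower case, each followed by its PAM in capitals, the motif next to the target that Cas9 needs.
gRNA 1: gggcggtttgcggcaaccgtGGG
gRNA 2: agaggctctcgctctacggcCGG
gRNA 3: cacctggtttacgacactccCGG
gRNA 4: agcatttagacacaagcgagAGG
Each had 1 exact match in GRCh38, on chromosome 10 near the 5′ end of ZEB1 (ENSG00000148516, 31318495 to 31529814, plus strand). gRNA 1 matched 31319025 to 31319044, gRNA 2 matched 31319067 to 31319086 and gRNA 3 matched 31319117 to 31319136, all on the minus strand. gRNA 4, used alone in 1 group of each line, matched 31319209 to 31319228 on the plus strand.

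The labelled cell types were checked against marker genes, as mean CPM of each group. Of the mesenchymal markers VIM ranged from 1309 to 4059 CPM over the 8 groups. SPARC was at 74.7 to 248.7 CPM in the groups of SUM159 and at most 2.63 CPM in those of MDA-MB-231. FN1 went from 1392 CPM in No gRNA of MDA-MB-231 to 690 CPM in set 1 and 370.3 CPM in set 2. Its wild type mean there was 227.5 CPM. SPARC went from 2.63 CPM in No gRNA of MDA-MB-231 to 0.358 CPM in set 1 and 0.156 CPM in set 2 (wild type 0.673 CPM). In No gRNA, All gRNA and gRNA 4 of SUM159 FN1 was at 2275, 1387 and 1607 CPM (wild type 1581 CPM). SPARC was there at 236.2, 93.0 and 74.7 CPM (wild type 248.7 CPM). ZEB1 is described below. The other members, VIM, CD44, AXL and CAV1, did not fall in both sets of MDA-MB-231. In No gRNA, set 1 and set 2 of MDA-MB-231 CD44 was at 1880, 2377 and 2297 CPM. In the same order AXL was at 1174, 1294 and 901.6 CPM and CAV1 at 492.4, 289.5 and 749.8 CPM. ESR1 and PGR reached at most 0.120 and 0.321 CPM. ERBB2, however, was at 42.0 to 63.3 CPM over the 8 groups, GATA3 at 3.01 to 13.8 CPM and FOXA1 at 0.861 to 3.51 CPM. The T cell and leukocyte markers CD3E and PTPRC were at most 0.195 CPM. Of the endothelial markers CDH5 was at most 0.149 CPM and VWF at most 0.820 CPM, while PECAM1 reached 6.54 CPM in All gRNA of SUM159 and KDR 11.9 CPM in set 1. The macrophage marker CD68 was at 17.6 CPM in No gRNA of SUM159 and 168.5 CPM in No gRNA of MDA-MB-231. The epithelial markers KRT19 and CLDN7 had 0 counts in No gRNA of SUM159 and means of 168.1 and 38.9 CPM in No gRNA of MDA-MB-231, while KRT7 was higher in SUM159 (836 against 245.5 CPM). Of the fibroblast markers DCN (44.6 CPM) and PDGFRA (119.7 CPM) were higher in No gRNA of SUM159 than of MDA-MB-231 (0.709 and 0.683 CPM), PDGFRB was lower (3.56 against 8.61 CPM), and LUM was at most 0.0894 CPM. KRT8 differed between set 1 (240.3 CPM) and set 2 (1015 CPM). The part of these markers in the results was not tested.

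ZEB1 fell in both lines, and whether the amounts were called different depended on the control. In SUM159 it was at 70.2, 76.2 and 72.5 CPM (estimated counts scaled to library size) in No gRNA, at 0.803, 0.373 and 1.02 CPM in All gRNA and at 4.51, 3.21 and 2.54 CPM in gRNA 4. MDA-MB-231 had 102, 119.8 and 103 CPM in No gRNA, 4.67, 5.43 and 5.71 CPM in set 1 and 4.97, 3.74 and 5.46 CPM in set 2. The targeted libraries lay below every control library in both lines, and the lowest values were those of the pool in SUM159. In bulk RNA, fewer cells expressing a gene and less RNA per cell cannot be told apart. The log2 change was -5.57 (SE 0.20) in SUM159 and -4.44 (SE 0.13) in MDA-MB-231. Their difference, here called the interaction (MDA-MB-231 effect minus SUM159 effect), was 1.12 with a 95% interval of 0.61 to 1.64, and it did not pass limma's TREAT, which tests whether a log2 difference exceeds 1 (adjusted p = 1), although it differed from 0 (moderated adjusted p = 0.0029). With wild type as the control the interaction of ZEB1 was 1.88 and was called by TREAT (adjusted p = 0.025), and with gRNA 4 as the only SUM159 group it was -0.0023. ZEB1-AS1, the antisense gene that overlaps the ZEB1 promoter, went from 10.5, 10.9 and 10.3 CPM to 0, 0.484 and 0.419 CPM in All gRNA of SUM159 but only to 5.22, 8.47 and 5.15 CPM in gRNA 4, effects of -5.83 and -0.79. In MDA-MB-231 its effects were -4.70 in set 1 and -2.63 in set 2. Strandedness is not given in the sources used here, so reads where both genes overlap may be counted for either.

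Over 16849 genes tested, TREAT called 73 genes in SUM159 (53 higher and 20 lower, 0.433% of the genes) and 304 in MDA-MB-231 (159 higher and 145 lower, 1.80%). The interaction was called for 144 genes (0.855%), of which 50 had the higher effect in MDA-MB-231 (0.297%) and 94 the higher effect in SUM159 (0.558%). Against 0, limma's moderated test called the interaction for 4175 genes (24.8%). A call in 1 line alone did not always come with a called difference between lines. Of 50 genes called in SUM159 alone, 27 had no called interaction, and of 281 called in MDA-MB-231 alone, 207 had none. Another 42 genes had a called interaction without a called effect in either line. Of 23 genes called in both lines, 20 moved the same way, 15 up and 5 down. The 144 genes were sorted by how the lines responded. In 70 the effects were of opposite sign and each differed from 0, 34 responded in MDA-MB-231 alone, 8 in SUM159 alone (called by TREAT in 1 line, with the 95% interval of the effect in the other within 1 of 0, which leaves room for a smaller change there), and 14 responded in 1 line and were at the floor (3 counts or fewer in each of 9 libraries) in the other. A further 8 moved the same way by different amounts and 10 fell in none of these classes.

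**Figure D1:**
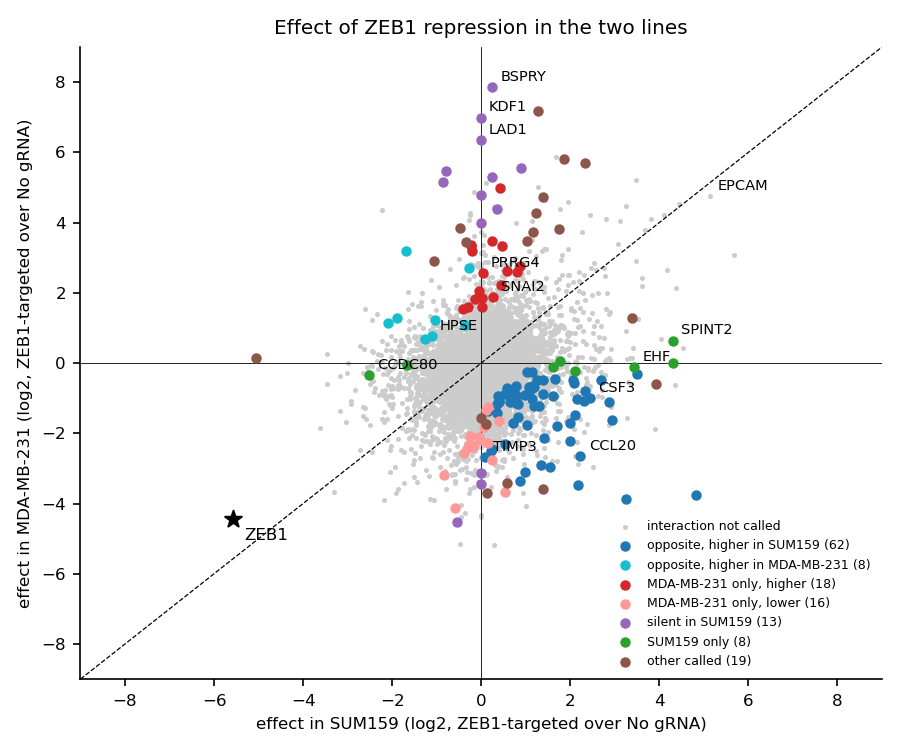
Effect of ZEB1 repression on each of 16849 genes, with the log2 change in SUM159 on the x axis and in MDA-MB-231 on the y axis (mean of 6 targeted libraries against 3 No gRNA libraries), coloured by class for the 144 genes with a called interaction; the dashed line marks equal effects. ZEB1 is low in both lines, BSPRY, KDF1 and LAD1 on the axis of no SUM159 effect, and CCL20 and CSF3 in the quadrant of opposite effects. Values of genes with groups at the floor depend on the offset of the fit.

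Several epithelial genes rose in both lines without a called interaction. EPCAM, an epithelial adhesion molecule, had 0 counts in No gRNA of SUM159 and 0.910, 0.804 and 0.869 CPM in All gRNA, at least 5.03-fold above the floor of 3 counts per library. In MDA-MB-231 it rose from 12.3, 10.7 and 14.03 CPM to 289, 276 and 295 CPM in set 1. With SUM159 controls at 0 the size of its rise there, and so its interaction, is not measured. CDH3, encoding P-cadherin, rose by 4.44 and 4.54, MAP7, a microtubule-binding protein of epithelial cells, by 3.67 and 3.79, and F11R, a tight junction receptor, by 2.78 and 2.48. Their interactions were 0.11, 0.11 and -0.31, with intervals of -0.74 to 0.95, -0.41 to 0.64 and -0.64 to 0.02, which stay within 1 of 0. With wild type as the control the interactions of CDH3 (0.01) and MAP7 (-0.44) stayed small, while that of F11R was -1.98 (adjusted p = 0.079). S100A4, a calcium-binding protein of motile cells, fell in both (-2.03 and -2.36; interaction -0.33, 95% interval -0.71 to 0.05). VIM, the mesenchymal intermediate filament, was not called by TREAT in either line (0.04 and -0.37), and the latter averages -0.84 in set 1 (moderated adjusted p = 1.33e-08) and 0.11 in set 2.

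A group of 10 genes rose in MDA-MB-231 and was at the floor in SUM159. These genes passed the filter on low counts only through libraries of MDA-MB-231, and fitted differences against groups without counts depend on the offset of the fit, so levels and bounds are given first and the calls of these genes are not read as support. BSPRY, a B-box protein of epithelial cells, was at 0.0577, 0.0559 and 0 CPM in No gRNA of MDA-MB-231, at 14.9, 14.99 and 14.1 CPM in set 1 and at 12.3, 13.4 and 10.96 CPM in set 2. In SUM159 it had 0 counts in 8 of 9 libraries and 1.01 estimated counts in 1. Against the floor of 3 counts per library the rise was at least 89.4-fold for set 1, for set 2 at least 74.5-fold. KDF1, a regulator of keratinocyte differentiation, had 0 counts in all 9 SUM159 libraries and rose in MDA-MB-231 to 4.42, 6.50 and 5.00 CPM in set 1 and 5.52, 4.26 and 4.96 CPM in set 2. LAD1, the basement membrane anchor ladinin, also had 0 counts throughout SUM159 and 0 in No gRNA of MDA-MB-231, and reached 3.01, 1.98 and 2.05 CPM in set 1 and 2.04, 1.82 and 2.41 CPM in set 2. All 3 genes were thus at the floor in both lines before repression and left it in 1 line only.

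OVOL1, a transcription factor that opposes EMT, had 0 counts in every SUM159 library and in No gRNA of MDA-MB-231. It reached 1.96, 1.98 and 0.928 CPM in set 1 but only 0.434, 0.374 and 0.206 CPM in set 2, and its call was lost without any 1 of 6 libraries (highest adjusted p 0.060). DAPP1, an adaptor of phosphoinositide signalling, and DENND1C, an exchange factor for RAB35, rose to 20.2, 20.9 and 17.99 CPM and to 23.2, 21.5 and 24.7 CPM in set 1. The test mattered for these genes, which have SUM159 groups without counts. edgeR's quasi-likelihood test did not call BSPRY, KDF1, LAD1, OVOL1 or DENND1C (adjusted p = 1.00 each), while DESeq2 with a threshold of 1 called BSPRY and KDF1 and not LAD1, OVOL1 or DENND1C.

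A further 18 genes rose in MDA-MB-231 while in SUM159, where they were expressed, the 95% interval of the effect stayed within 1 of 0. SNAI2, encoding the EMT factor SLUG, belonged to these. It was at 15.3, 16.2 and 17.1 CPM in No gRNA of MDA-MB-231, rose to 94.3, 92.9 and 92.5 CPM in set 1 and to 37.3, 38.0 and 37.8 CPM in set 2, and in SUM159 went from 50.6, 46.8 and 47.5 CPM to 61.2, 58.3 and 57.4 CPM in All gRNA. A repressor linked to the mesenchymal state thus rose in the same MDA-MB-231 groups as BSPRY, KDF1 and LAD1. SNAI2 rose in SUM159 too, by 0.26 (moderated adjusted p = 8.19e-04). The interaction of SNAI2 was 1.62 (SE 0.07, adjusted p = 8.35e-05), and with set 2 as the only MDA-MB-231 group it was not called. PRRG4, a vitamin K-dependent membrane protein, rose from 2.64, 3.70 and 3.14 CPM to between 17.1 and 19.7 CPM in the targeted MDA-MB-231 libraries and lay between 9.22 and 10.3 CPM in all 9 of SUM159. THBS1, the matrix glycoprotein thrombospondin 1, rose from 342, 450.4 and 378 CPM to 1631, 1558 and 1539 CPM in set 1 and 2114, 2048 and 2104 CPM in set 2. For SNAI2 and PRRG4 the controls of MDA-MB-231 lay below those of SUM159, while THBS1 was higher in MDA-MB-231 from the start.

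CDS1, an enzyme of phosphatidylinositol synthesis, rose by 1.75 in SUM159 and 3.81 in MDA-MB-231, and its interaction of 2.06 lost its call without No gRNA replicate 1 of MDA-MB-231 (adjusted p = 0.12) or replicate 2 (adjusted p = 0.064). CRB3, an apical polarity protein, reached 19.5, 19.6 and 16.8 CPM in set 1 against 0.239, 0.0939 and 0.243 CPM in All gRNA of SUM159. In SUM159 its No gRNA and gRNA 4 libraries were at the floor and TREAT did not call it (adjusted p = 0.64), and the call of its interaction was lost without any 1 of 17 libraries. ESRP1, the epithelial splicing regulator, rose by 4.38 in MDA-MB-231. In SUM159 its libraries overlapped No gRNA, TREAT did not call it (1.77, adjusted p = 1), and its interaction of 2.61 had an interval of 1.18 to 4.03 and was not called (adjusted p = 0.70).

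The class of a response in SUM159 alone held 6 genes that rose there, with the 95% interval of the effect in MDA-MB-231 within 1 of 0. A smaller change in MDA-MB-231 is thus possible. In 5 of the 6 the effects of set 1 and set 2 had opposite signs, so that the mean for MDA-MB-231 averages unlike values. SPINT2, an inhibitor of the serine proteases that activate hepatocyte growth factor, was at 0.470, 0.489 and 0.467 CPM in No gRNA of SUM159 and rose to 10.9, 12.01 and 12.5 CPM in All gRNA and 5.64, 10.2 and 10.2 CPM in gRNA 4. MDA-MB-231 expressed it from the start, with 474, 442 and 490.3 CPM in No gRNA and 785, 767 and 743 CPM in set 1. The rise was 4.31 in SUM159 and 0.64 in MDA-MB-231 (interaction -3.67, SE 0.40, adjusted p = 8.27e-04). SPINT2 thus rose in MDA-MB-231 too, by less (moderated adjusted p = 1.78e-08). SPINT1, its close relative, rose in both lines (5.68 and 3.08), and its interaction of -2.60 was not called (adjusted p = 0.12).

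EHF, an epithelial ETS transcription factor, showed the same order of starting levels. It rose from 1.46, 0.540 and 0.605 CPM to 7.23, 6.09 and 8.27 CPM in All gRNA and 10.9, 10.1 and 11.01 CPM in gRNA 4. In MDA-MB-231 it stood at 50.8, 59.6 and 63.9 CPM in No gRNA, 81.2, 83.99 and 89.4 CPM in set 1 and 37.9, 35.0 and 29.01 CPM in set 2. The sets moved in opposite directions by limma's moderated test (0.55 and -0.77), so that the mean effect of -0.11 in MDA-MB-231 averages a rise and a fall (interaction -3.54, SE 0.36, adjusted p = 5.55e-04). SLC35F3, a thiamine transporter, was likewise near 0 in SUM159 before repression and already expressed in MDA-MB-231, with effects of -0.36 in set 1 and 0.38 in set 2. PI3, the elastase inhibitor elafin, and TFPI2, an inhibitor of plasmin, were expressed in SUM159 and rose there by 2.11 and 1.77. TFPI2 had effects of 0.34 in set 1 and -0.24 in set 2, both past the moderated test. The call for PI3 was lost without No gRNA replicate 1 of MDA-MB-231 (adjusted p = 0.078) or replicate 3 (adjusted p = 0.10). SERPINA1, another protease inhibitor, rose by 1.61 in SUM159 and had effects of 0.43 in set 1 and -0.65 in set 2. CCDC80, a matrix protein, fell in SUM159 from 30.4, 27.8 and 23.2 CPM to 4.37, 5.28 and 3.65 CPM in All gRNA and 7.95, 5.15 and 3.02 CPM in gRNA 4. In MDA-MB-231 its No gRNA values (54.7, 61.9 and 67.5 CPM) overlapped those of set 2 (71.6, 56.0 and 68.0 CPM), while set 1 was lower (37.1, 33.8 and 36.2 CPM, an effect of -0.78). The mean effect there was -0.35 (moderated adjusted p = 0.024), and the interaction was 2.17 (SE 0.23, adjusted p = 0.0099).

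**Figure D2:**
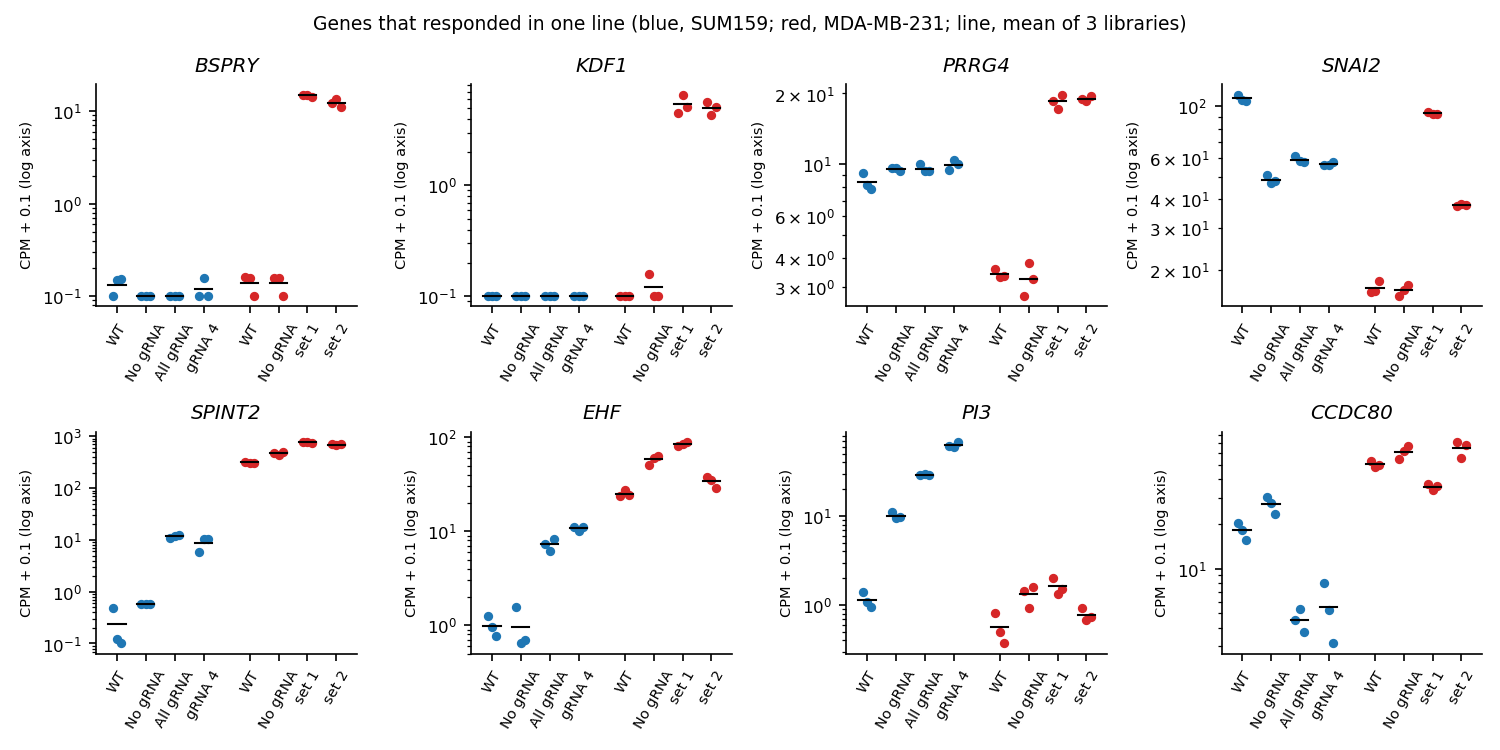
CPM of 8 genes in each library, on a log axis after adding 0.1, with SUM159 in blue, MDA-MB-231 in red and a line at the mean of 3 libraries. BSPRY and KDF1 leave the floor in set 1 and set 2 alone, PRRG4 and SNAI2 rise in MDA-MB-231, SPINT2, EHF and PI3 rise in All gRNA and gRNA 4 of SUM159, and CCDC80 falls there.

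In the class of opposite effects, 62 genes rose in SUM159 and fell in MDA-MB-231 and 8 did the reverse. The median effects of the 62 were 1.15 in SUM159 and -1.09 in MDA-MB-231. Some of the 62 were at or near the floor in groups of 1 line. Among the named genes EPGN, LINC00922 and TREM1 had targeted groups of MDA-MB-231 at the floor. The fitted effects of such genes depend on the offset of the fit, and the medians and counts of this class include them. In 52 of the 70 all 6 targeted libraries were on one side of No gRNA in both lines. Over all tested genes this held for 15.8% in SUM159 and 22.6% in MDA-MB-231, each line taken singly, and since the class needs effects that differ from 0 in both lines nothing is read from the comparison. Few of the opposite effects were large in both lines. Of the 62, TREAT called 15 in SUM159 and 15 in MDA-MB-231, but only 3 genes in both. Effects were at least 1 in both lines for 20 of the 62, and 9 changed by less than 0.5 in SUM159. Rises and falls in this class are by limma's moderated test. The named members include cytokines, ligands of the EGF receptor and early response genes.

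CCL20, a chemokine for CCR6-bearing lymphocytes, was among those 3. It rose in SUM159 from 5.09, 5.93 and 5.76 CPM to 18.9, 19.8 and 20.6 CPM in All gRNA and 35.3, 33.0 and 35.9 CPM in gRNA 4. In MDA-MB-231 it fell from 8.26, 7.51 and 7.39 CPM to 2.71, 1.78 and 1.77 CPM in set 1 and 0.908, 0.734 and 0.483 CPM in set 2 (interaction -4.89, SE 0.20, adjusted p = 3.55e-09). The wild type libraries, however, had 35.8, 34.0 and 36.2 CPM in SUM159 and 1.05, 1.01 and 1.17 CPM in MDA-MB-231. In SUM159 All gRNA and gRNA 4, and in MDA-MB-231 both sets, thus lay closer to wild type than No gRNA did. With wild type as the control the interaction was 0.57.

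CSF3, the granulocyte colony-stimulating factor, rose in SUM159 from 30.7, 37.4 and 33.1 CPM to 239.6, 194 and 193 CPM in All gRNA and fell in MDA-MB-231 from 84.3, 82.7 and 83.3 CPM to 36.0, 38.3 and 35.5 CPM in set 1 and 46.0, 49.5 and 45.4 CPM in set 2 (interaction -3.44, SE 0.15, adjusted p = 4.42e-08). Its rise in SUM159 was also seen against wild type (1.57), whose libraries had 57.4, 55.8 and 72.9 CPM, while in MDA-MB-231 the change against wild type was 0.32. IL1B, the cytokine interleukin-1 beta, rose in SUM159 from 11.7, 10.7 and 11.3 CPM to 55.7, 62.2 and 55.6 CPM in All gRNA. Against wild type, at 46.4, 52.9 and 46.3 CPM in SUM159, its effect there was 0.24. With that control its interaction turned from -3.13 to 1.21, which TREAT did not call (adjusted p = 0.17). MDA-MB-231 had 468, 462 and 497 CPM in No gRNA, 520.2, 512 and 512 CPM in set 1 and 142, 148 and 149 CPM in set 2, so that its fall there was in set 2 alone. CXCL16, a membrane-bound chemokine, went the other way, from 2.00, 1.36 and 1.75 CPM to 19.6, 20.7 and 26.9 CPM in set 1 with a SUM159 change of 0.47 that was not called. Against wild type, at 1.05, 1.35 and 1.01 CPM in SUM159, its effect there was 2.05, and its interaction of 2.40 was not called (adjusted p = 0.075).

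Set 1 and set 2 differed in several of these genes. EGR1, an early response transcription factor, rose in SUM159 from 8.47, 7.35 and 9.50 CPM to 46.7, 40.4 and 42.0 CPM in All gRNA. In MDA-MB-231 it went from 394, 389.9 and 373 CPM up to 584, 630.3 and 619 CPM in set 1. In set 2 it went down to 52.3, 57.2 and 53.8 CPM. The wild type libraries had 44.7, 41.8 and 44.5 CPM of EGR1 in SUM159 and 198, 186 and 192 CPM in MDA-MB-231. Against wild type its effect in SUM159 was -0.05 and its interaction was -0.03, in place of -3.40 against No gRNA. ERRFI1, a feedback inhibitor of the EGF receptor, was at 2297, 2306 and 2310.0 CPM in No gRNA of MDA-MB-231, at 2373, 2359 and 2348 CPM in set 1 and at 537, 562 and 544 CPM in set 2. Its wild type libraries had 423, 442 and 435 CPM, so set 2 lay nearer to wild type and set 1 nearer to No gRNA. The ERK phosphatase DUSP6 followed that pattern, with means of 1273 CPM in No gRNA, 1115 CPM in set 1, 436 CPM in set 2 and 488 CPM in wild type. Over all tested genes set 2 was nearer to wild type than No gRNA was in 60.4%, and set 1 in 31.8%. Nearness of set 2 to wild type is therefore not particular to these genes. Among the 62 genes the sets had opposite signs in 13, set 2 had the more extreme value in 51, and both sets were lower than No gRNA by the moderated test in 41.

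EREG and HBEGF, ligands of the EGF receptor family, rose in SUM159 by 1.08 and 1.65 and had effects of -0.08 and 0.15 in set 1 and -1.31 and -1.05 in set 2. EPGN, a further ligand, rose in SUM159 from 2.13, 1.92 and 2.88 CPM to 11.8, 10.3 and 10.7 CPM in All gRNA. MDA-MB-231 had 0.0516, 1.03 and 1.05 CPM in No gRNA and was at or near 0 in all targeted and wild type libraries. The prostaglandin synthase PTGS2 rose by 2.08 in SUM159 and by 0.77 in set 1, and fell by 1.90 in set 2. Against wild type the SUM159 effects were -0.27 for EREG, -0.89 for HBEGF, 0.15 for EPGN and -0.31 for PTGS2. With that control the interactions of HBEGF (1.76), PTGS2 (2.74) and ERRFI1 (1.79) were called in the opposite direction. ASNS, asparagine synthetase and a target of the amino acid response, was flat in SUM159 (0.11) and stood at 450.5, 445 and 471 CPM in No gRNA of MDA-MB-231, 541, 536 and 561 CPM in set 1, 34.5, 36.3 and 33.9 CPM in set 2 and 32.0, 38.1 and 38.1 CPM in wild type.

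Of the 62 genes, 43 kept the sign of their interaction with wild type as the control, and 20 kept the sign of both effects. All 8 genes of the reverse class kept the sign of their interaction, though TENT5B changed sign in MDA-MB-231 (-0.93 against wild type) and ZNF385B in SUM159 (1.23). TIMP3, an inhibitor of matrix metalloproteases, fell in MDA-MB-231 from 1167, 1178 and 1191 CPM to 197, 201 and 199 CPM in set 1 and 174, 167 and 172 CPM in set 2, below the 478, 479 and 478 CPM of wild type. In SUM159 it was at 581, 581 and 566 CPM in No gRNA and 563.7, 576 and 563 CPM in All gRNA, a change of 0.09 over both groups, so its place in the opposite class rests on a very small rise against No gRNA (interaction -2.76, SE 0.04, adjusted p = 3.20e-14). Against wild type, at 219.5, 210.1 and 214.3 CPM in SUM159, its effect there was 1.52. CA12, a carbonic anhydrase, fell from 36.0, 28.7 and 35.7 CPM to 5.12, 6.62 and 4.52 CPM in set 1 and 6.68, 7.67 and 6.404 CPM in set 2, with a SUM159 change of 0.23. HPSE, the heparan sulfate-cleaving heparanase, was reversed: it fell in SUM159 from 11.8, 11.4 and 10.44 CPM to 5.596, 4.52 and 4.77 CPM in All gRNA and rose in MDA-MB-231 from 18.6, 16.9 and 18.8 CPM to 31.0, 32.4 and 30.9 CPM in set 1 and 26.8, 33.9 and 31.1 CPM in set 2. Wild type differed little from No gRNA for this gene in either line, and the interaction was 1.89 (SE 0.14, adjusted p = 0.0012) against No gRNA and 1.77 (adjusted p = 0.0022) against wild type. CHST3, a chondroitin sulfotransferase, also fell in SUM159 (-0.37) and rose in MDA-MB-231 (1.09), with an interaction of 1.46 against No gRNA and 1.35 against wild type.

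**Figure D3:**
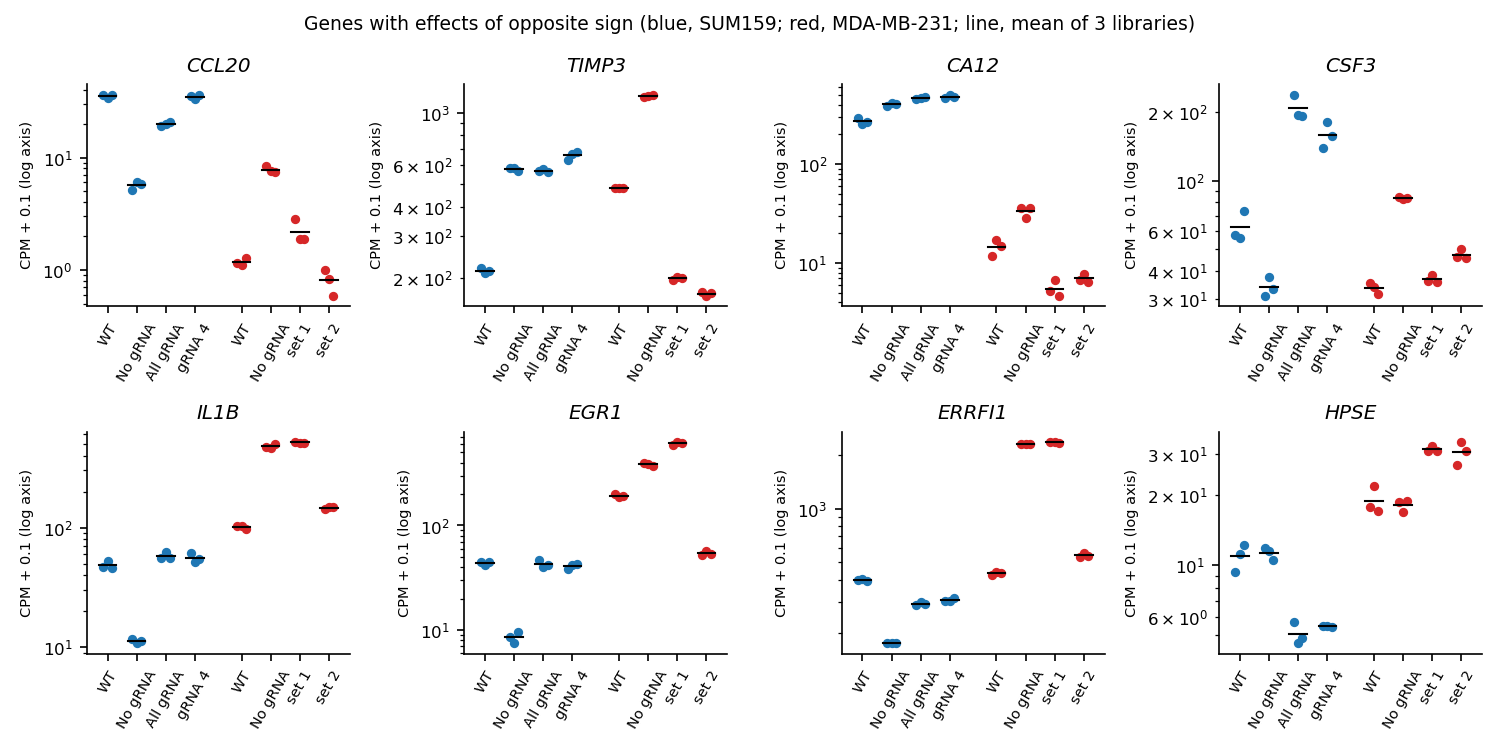
CPM of 8 genes in each library, on a log axis after adding 0.1, with SUM159 in blue, MDA-MB-231 in red and a line at the mean of 3 libraries. For CCL20 the targeted libraries lie nearer to wild type (WT) than No gRNA in both lines, IL1B, EGR1 and ERRFI1 differ between set 1 and set 2, and TIMP3, CA12 and HPSE move the same way in both sets.

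The 16 genes that fell in MDA-MB-231 with an effect within 1 of 0 in SUM159 had No gRNA above wild type in 16 of 16, by a median of 2.23 on the log2 scale. They were chosen for a No gRNA level above that of the targeted libraries, so nothing is read from this count. SLC14A1, a urea transporter, fell by 3.66 against No gRNA and had an effect of -0.12 against wild type. In SUM159 its effects against No gRNA were 1.18 in All gRNA and -0.12 in gRNA 4. The mean of 0.53 there thus averages unlike values. SORBS2, an actin-binding adaptor, fell by 2.39 against No gRNA and had an effect of 0.06 against wild type. ATOH8, a helix-loop-helix factor, fell against both controls, in set 2 to at least 14.6-fold below No gRNA. It fell in SUM159 too, from 61.1, 62.5 and 64.2 CPM to 35.9, 36.0 and 37.2 CPM in All gRNA, with a mean effect of -0.59. NUPR1, a stress-response factor, fell by 1.02 in set 1 and to at least 44.9-fold below No gRNA in set 2, where it was at the floor. Its wild type libraries in MDA-MB-231 had 0.0594, 0.312 and 0.565 CPM, so set 1, at 2.78, 5.15 and 4.41 CPM, lay below No gRNA and above wild type. NUPR1 fell in SUM159 too, from 226, 219.7 and 239.6 CPM to 141, 155 and 140.6 CPM in All gRNA.

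The classes differed in how far they held with the other control. No gRNA differed from wild type by TREAT in 601 genes in MDA-MB-231 and 266 in SUM159. With wild type as the control in both lines, 533 interactions were called, 111 of the 144 kept their sign, and 54 were called with both controls and the same sign, 32 with the higher effect in MDA-MB-231 and 22 with the higher effect in SUM159. Another 8 were called with both controls and opposite signs, ASNS, DDIT4, ERRFI1, HBEGF and PTGS2 among them. Nothing is read from the interactions of the 10 genes that rose in MDA-MB-231 and were silent in SUM159, since SUM159 was at the floor for them. The 32 include 9 of these 10 genes. They also include CRB3 and MARVELD3, whose calls are not read as support either. Further genes of the 54 were near the floor in No gRNA of 1 line. Among the named genes these include LINC00922 (mean 0.632 CPM in MDA-MB-231) and SLC35F3 (0.0191 CPM in SUM159). Their fitted differences depend on the offset of the fit, and their calls are not read as support. Both interactions use the same targeted libraries, so a call with both controls is not independent evidence. Of the 18 that rose in MDA-MB-231 alone, 16 kept the sign of their interaction and 10 its call, PRRG4, SNAI2, THBS1 and FGD4 among the named genes. CCNE1, a cyclin of the G1/S transition, kept neither. Its No gRNA libraries in MDA-MB-231 had 4.52, 4.77 and 5.06 CPM against 13.7, 12.8 and 14.6 CPM in wild type. Against wild type the SUM159 effects were -0.89 for SNAI2, -0.59 for THBS1, 0.23 for PRRG4 and 0.09 for FGD4. With that control the interactions of SNAI2 and THBS1 thus include a fall in SUM159. All 6 genes of the class that rose in SUM159 alone kept the sign of their interaction and 5 its call. Against wild type, however, their median effect in MDA-MB-231 was 1.19, with EHF (1.09), PI3 (1.195), SERPINA1 (1.54), SPINT2 (1.21) and TFPI2 (1.19) all above 1. The place of these genes in the class thus held with No gRNA as the control and not with wild type. SLC35F3 had an effect of 0.09 in MDA-MB-231 against wild type. Of the 62 opposite genes 43 kept their sign and 13 their call, and the median effect in MDA-MB-231 was 0.26 against wild type in place of -1.09. In MDA-MB-231 No gRNA was above wild type in 58 of the 62, by a median of 1.55. They were chosen for a No gRNA level above that of the targeted libraries there, so nothing is read from this change.

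**Figure D4:**
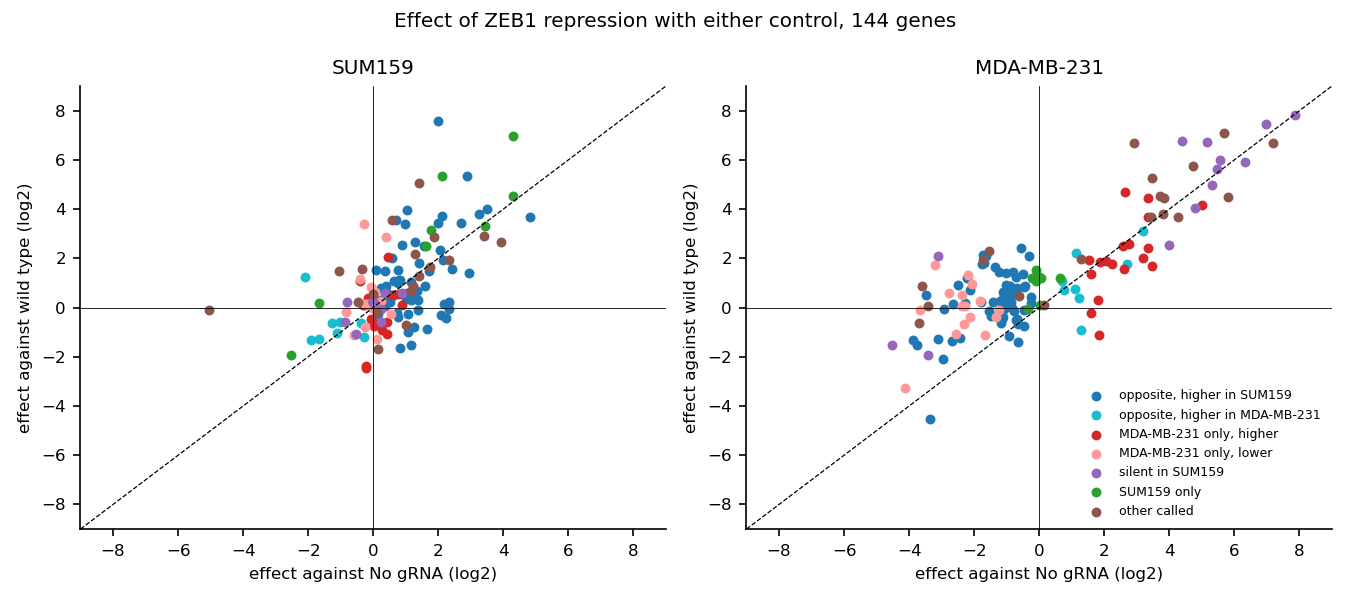
Log2 effect of ZEB1 repression on the 144 genes against No gRNA (x axis) and against wild type (y axis) in SUM159 (left) and MDA-MB-231 (right); the dashed line marks equal values. Most genes that rise in MDA-MB-231 rise against both controls, with TENT5B among the exceptions, while most of those that fall there against No gRNA lie at or above 0 against wild type.

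ZEB1 binds the E-box CACCTG, which reads CAGGTG on the other strand, and the promoters of the genes were searched for these letters from 250 bases before to 50 after the start site (RefSeq, GRCh38.p14, both strands). Of all 27305 promoters 20.6% held at least 1 match, and of the 11946 promoters of tested genes 18.5% did. Of 28 genes that rose in MDA-MB-231 alone or were silent in SUM159, 17 had a promoter in the table and 11 of these held a match (64.7%), 4 of them 2 or more. Of the 100 promoters of genes called higher in MDA-MB-231, 54 held a match, and of the 34 of genes called higher in SUM159, 14 did (41.2%). The shares were 18.3% for genes called lower in MDA-MB-231 (17 of 93) and 41.7% for those called lower in SUM159 (5 of 12), so in SUM159 it was about the same in both directions. Of 40 promoters among the 62 opposite genes 3 held a match (7.50%), and of 11 among the genes that fell in MDA-MB-231 alone, 1. The 28 genes include the 10 at the floor in SUM159, which passed the filter on low counts through MDA-MB-231 only. Their share is not read as support. The promoters compared are few and were not tested, and a match is a run of letters and not a measured binding site. The stretches of 30 bases that hold the match nearest to and before the start site are shown for genes with a response in MDA-MB-231 alone or the larger one there, read along the gene's strand and with the E-box in capitals.
KDF1: ggggcctcggtcCAGGTGcgcggtagcgct
LAD1: ggggaggggcgcCAGGTGaggcggcggccg
PRRG4: gtggggcgcggcCAGGTGtccccaggtagc
CDS1: cgtggagacgcgCACCTGgcaaccggaggc
CRB3: agtgcgctctccCAGGTGagtgactaaact
The stretch of KDF1 lies on the minus strand at chr1:26960482-26960511 and its promoter holds 2 matches. That of LAD1 is on the minus strand at chr1:201399342-201399371, also with 2 in the promoter. PRRG4 is on the plus strand at chr11:32829883-32829912, CDS1 on the plus strand at chr4:84583088-84583117 and CRB3 on the plus strand at chr19:6464199-6464228, the last with 5 matches. The match starts 31 bases before the start site in KDF1, 35 in LAD1, 32 in PRRG4, 27 in CDS1 and 60 in CRB3. In further genes of these classes, not shown, it starts 33 bases before in OCLN, 144 in ERVMER34-1, 188 in FGD4 and 203 in DAPP1.

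Over gene lists of known function, those of epithelial junctions and polarity had larger median effects in MDA-MB-231. The junction median includes MARVELD3 and the polarity median BSPRY, CRB3, KDF1 and LAD1, all at or near the floor in SUM159. The medians were not taken without these genes, so the larger values are not read as support. The list of keratins and hemidesmosomes had the larger median in SUM159 (0.57 against 0.27). Its median interaction, however, turned from -0.35 against No gRNA to 0.15 against wild type. Of 27 epithelial junction genes, 3 had a called interaction with the higher effect in MDA-MB-231, a direction called for 0.297% of all tested genes, and 0 the reverse, MARVELD3 and OCLN being among the 3. MARVELD3 had at most 6.11 estimated counts in any SUM159 library, so it passed the filter through MDA-MB-231 only and its call is not read as support. The list had median effects of 0.66 in SUM159 and 1.13 in MDA-MB-231. OCLN, encoding occludin, and MARVELD3, its relative, lost the call without any 1 of 15 and of 14 libraries. Of 24 genes of polarity, splicing and trafficking, CDS1 was called with the higher effect in MDA-MB-231 and SPINT2 with the higher effect in SUM159. BSPRY, CRB3, KDF1 and LAD1 were called with the higher effect in MDA-MB-231 too, but passed the filter through MDA-MB-231 only, and their calls are not read as support. Among 19 EMT transcription factors SNAI2 was called with the higher effect in MDA-MB-231, as was OVOL1, which has the same limit, and EHF with the higher effect in SUM159. Among 23 mesenchymal and matrix genes CCDC80 and THBS1 were called, and among 20 matrix proteases and inhibitors TIMP3. The median interaction over all tested genes was -0.01.

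In the lists of cytokines, EGF-family ligands and early response genes the called members had mostly the higher effect in SUM159. Of 22 cytokines and chemokines 6 were called with the higher effect in SUM159, a direction called for 0.558% of all tested genes, and CXCL16 with the higher effect in MDA-MB-231, and the median interaction was -1.003 against No gRNA and 1.02 against wild type. The medians in set 1 and set 2 were 0.10 and -1.57, with 0.55 in SUM159. Of 15 ERBB receptors and EGF-family ligands 4 were called with the higher effect in SUM159 (EPGN, EREG, ERRFI1 and HBEGF), of which EPGN passed the filter through SUM159 only and is not read as support, with a median interaction of -0.83 against No gRNA and 0.94 against wild type. Of 21 AP-1 and early response genes DUSP5, DUSP6, EGR1 and SPRY4 were called with the higher effect in SUM159, and of 26 genes of the unfolded protein and ATF4 response ASNS, DDIT4 and VLDLR. The median interaction turned from -0.63 to 0.36 in the early response list and from -0.72 to 1.01 in the ATF4 list with wild type as the control. For the ATF4 list the medians were 0.04 in set 1 and -1.57 in set 2. Among 28 genes of glycolysis and the hypoxia response ALDOC, CA12 and NDRG1 were called with the higher effect in SUM159, and the median interaction turned from -0.32 to 0.11. Of 25 genes of DNA replication and G1/S only CCNE1 was called, with list medians of -0.49 in set 1, 1.43 in set 2 and -0.14 in SUM159. No interaction was called among 39 interferon-stimulated genes, 17 of MHC class I presentation, 21 keratins and hemidesmosome genes, 17 collagens, 27 of sterol and fatty acid synthesis, 26 of mitosis, 19 NRF2 targets, 24 of the TGF-beta pathway, 23 of the WNT pathway, 21 YAP targets and 23 corepressors. Limma's moderated test against 0, which called 24.8% of all tested genes, called members of each of these lists.

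**Figure D5:**
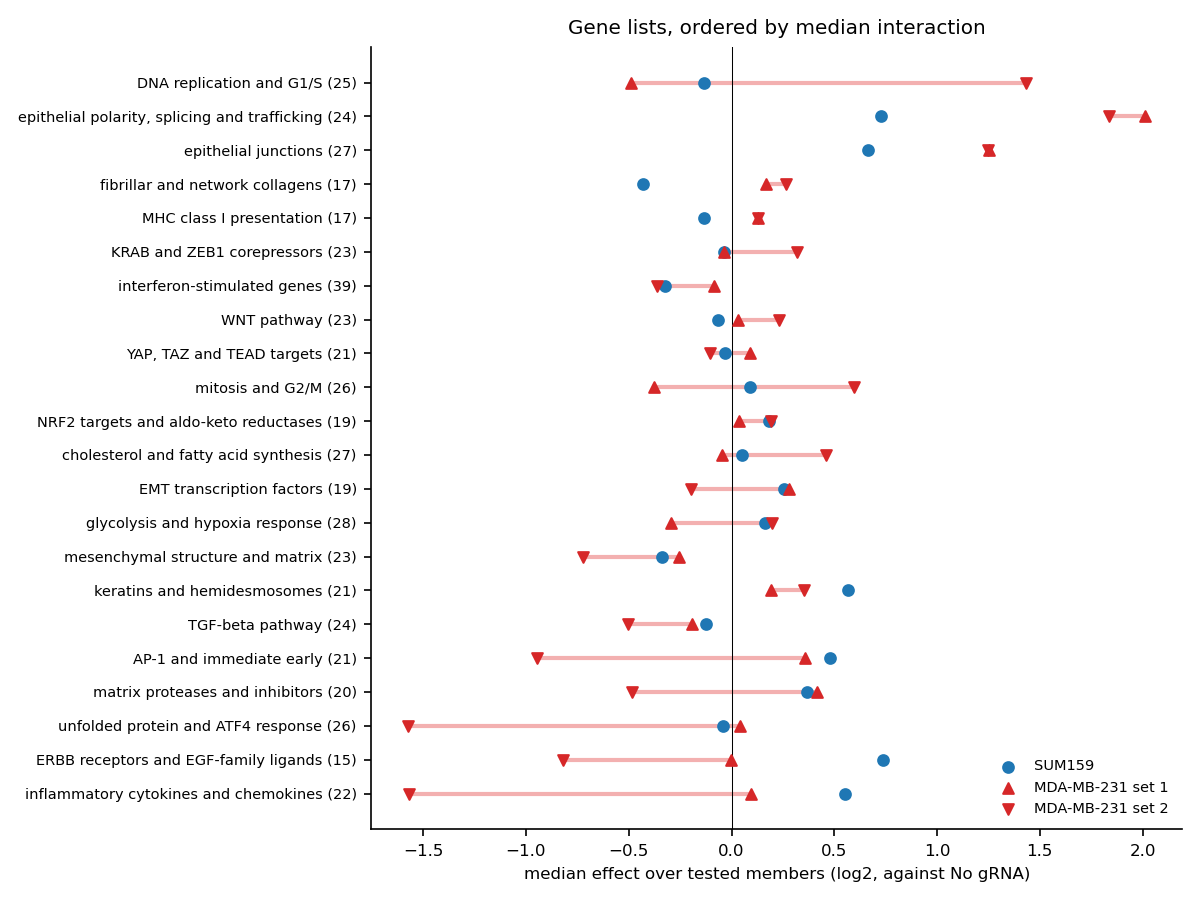
Median log2 effect against No gRNA over the tested members of 22 gene lists (number of members in brackets), for SUM159 (circles) and for set 1 and set 2 of MDA-MB-231 (triangles), ordered by the median interaction. The epithelial junction and polarity lists, which include members at or near the floor in SUM159, have both sets above SUM159. The keratin list has both below, and the cytokine, ATF4 and G1/S lists have set 1 and set 2 far apart.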

How the data were processed

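RNA from 27 libraries was sequenced as single-end reads. Estimated counts for each gene were made and deposited by the authors, using Salmon and tximport (length-scaled, no normalization between libraries) on GRCh38. The annotation is not given in the sources used here. Of 57165 gene identifiers 56347 matched GENCODE v44, which gave symbols. Counts of 18 libraries were fitted with voom and limma 3.58.1 (R 4.3.3) as 6 group means, after filterByExpr of edgeR 4.0.16 (minimum count 10) and TMM scaling, which also gives CPM (wild type and marker CPM are on the scale of 24 libraries). TREAT tested each effect and the interaction against a log2 change of 1, and the moderated test against 0, two-sided, with Benjamini-Hochberg adjusted p-values called under 0.05. A gene responded in a line if TREAT called it and its targeted libraries did not overlap No gRNA. Named genes were ZEB1 and ZEB1-AS1, a fixed set of study genes, per class the 6 of largest interaction (opposite: of largest smaller effect) with at least 5 CPM in a group, and per list at most 5 called. The members, lists and tests were chosen with earlier results of these data known. Counts were rounded for edgeR's and DESeq2 1.42.0's own tests. The steps were tested on simulated data. Depth limits precision, and p-values measure the spread between clones of a group. Other tests, scalings, filters, controls, sample sets and left-out libraries were tried. Wild type SUM159 from the other run (3 libraries) was left out. Some genes are not reported here.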

Additional observations from a re-analysis of the deposited data

Results flagged for a closer look

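The difference between lines itself, called by limma's TREAT for 144 genes, is the first result flagged. Within a line the ZEB1-targeted groups also differed: 492 genes were called between set 1 and set 2 of MDA-MB-231, and 1 between All gRNA and gRNA 4 of SUM159 (CD36, a fatty acid receptor, named after its values were seen, at -3.09 on the log2 scale). Of the 144 genes, 31 were also called between set 1 and set 2 and 0 between All gRNA and gRNA 4. In 6 named genes the sets had effects of opposite sign against No gRNA and a called difference. Set 1 minus set 2, on the log2 scale, was 3.49 for EGR1, 2.11 for ERRFI1, 1.2045 for HBEGF, 1.81 for IL1B, 2.68 for PTGS2 and 3.97 for ASNS, with set 1 higher in all of these. Set 1 and set 2 have conflicting gRNA labels, and whether gRNA, clone or culture moves with these values was not tested.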

How the results depend on the processing

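Of 65 named genes with a called interaction, 49 kept the call without any 1 library and 16 lost it without at least 1. The count of called interactions (144) and of genes called in SUM159 (73) and MDA-MB-231 (304) moved with the threshold. With limma's moderated test against 0 they were 4175, 2419 and 6923, with an absolute log2 value over 1 in addition 1098, 487 and 1498, with TREAT against the log2 of 1.2-fold 1524, 615 and 2721, and with edgeR's quasi-likelihood test 4036, 2277 and 6574. In the same order of settings the calls were 5792, 1230, 2242 and 5442 in set 1, 8238, 2600, 4830 and 7962 in set 2, 1943, 421, 488 and 1822 in All gRNA, 2008, 474, 565 and 1895 in gRNA 4, and 252, 100, 158 and 241 among list members (37 as reported). edgeR's glmTreat gave 218 interactions and 99 calls in gRNA 4 (65 as reported). For the first 3 of these settings, genes of opposite effect were 466, 183 and 368, of MDA-MB-231 alone 1654, 262 and 611, of SUM159 alone 416, 64 and 102, and silent in 1 line 77, 75 and 45. The classes were not computed under edgeR or DESeq2, which give no limma intervals.

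With wild type as the control the counts were 533 interactions, 487 calls in SUM159, 513 in MDA-MB-231, 1393 in set 1, 246 in set 2, 437 in All gRNA, 435 in gRNA 4, 94 list members, 311 opposite, 55 in MDA-MB-231 alone, 63 in SUM159 alone and 39 silent. With the 6 targeted libraries of a line as 1 group they were 45 interactions, 35 in SUM159, 175 in MDA-MB-231, 10 list members, 16 opposite, 12 in MDA-MB-231 alone, 1 in SUM159 alone and 5 silent. Set 1 alone gave 21 list members and 38 opposite genes, and set 2 alone 405 interactions, 682 calls in MDA-MB-231, 74 list members, 150 opposite, 183 in MDA-MB-231 alone and 24 silent. Without a filter 41 genes were silent. A filter that needs counts in both lines left 174 calls in MDA-MB-231, 141 in set 1 and 0 silent genes, by its construction.

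Leaving out libraries, 1 at a time or by replicate number, gave 65 to 145 interactions (126 to 145 for single libraries), 40 to 75 calls in SUM159, 172 to 300 in MDA-MB-231, 165 to 252 in set 1, 390 to 698 in set 2, 23 to 70 in All gRNA, 35 to 67 in gRNA 4, 22 to 35 list members, 31 to 73 opposite genes, 14 to 38 of MDA-MB-231 alone, 3 to 9 of SUM159 alone and 3 to 14 silent. With the replicate block 132 interactions were called, 61 effects in SUM159 and 273 in MDA-MB-231. Deviations of same-numbered libraries correlated by -0.075 to 0.049, so the numbers were not taken as a pairing.

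The interaction of these genes changed sign with wild type as the control: ASNS 2.13, CCL20 0.57, CCNE1 -0.10, CYTH4 0.70, DDIT4 1.88, DUSP6 0.62, EPCAM 0.061, EPGN 0.34, EREG 1.08, ERRFI1 1.79, HBEGF 1.76, IL1B 1.21, MAP7 -0.44, NUPR1 1.90, PTGS2 2.74, SLC14A1 0.16, SLC16A6 0.031 and SPRY4 0.46. It changed sign with set 1 alone for ASNS (0.15), MAP7 (-0.083) and S100A4 (0.084), with set 2 alone for VIM (0.072) and ZEB1-AS1 (0.68), with gRNA 4 alone for CDH3 (-0.18), S100A4 (0.16) and ZEB1 (-0.0023), and with All gRNA alone for ZEB1-AS1 (2.16). Leaving out libraries changed it for CDH3 (-0.18 without SUM159 No gRNA replicate 2, -0.34 without MDA-MB-231 No gRNA replicate 3, -0.093 without replicate 2), MAP7 (-0.012 without MDA-MB-231 No gRNA replicate 1, -0.071 without replicate 1) and ZEB1-AS1 (0.0067 without SUM159 All gRNA replicate 2, 0.77 without replicate 2). Over all left-out libraries the interaction ranged from -0.34 to 0.49 for CDH3, -0.071 to 0.39 for MAP7 and -1.03 to 0.77 for ZEB1-AS1. Of these only ASNS, CCL20, CCNE1, CYTH4, DDIT4, DUSP6, EPGN, EREG, ERRFI1, HBEGF, IL1B, NUPR1, PTGS2, SLC14A1, SLC16A6 and SPRY4 were called. The cause was not tested.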
